A study of Mus musculus with 6 samples.

Results

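The 35 genes described here encode enzymes of cholesterol synthesis, the sterol-sensing SREBP machinery and enzymes of fatty acid synthesis, desaturation and elongation. They were chosen by the function of their products, with earlier results of these data known. All 35 were found among the 49568 genes of the deposited table. The sterol arm held 18 enzymes, 8 of them on the way from acetyl-CoA to squalene and 10 from squalene to cholesterol. SREBP regulation held 6 genes and the fatty acid arm 11. Expression was measured by RNA sequencing of right lung lobes that were frozen after the vessels had been flushed with saline, from C57BL/6 mice 6 weeks old. Lungs of Col6a1-/- mice (mutant in the following), in which the gene for a chain of collagen VI is disrupted, were compared with those of wildtype mice. Each genotype gave 3 libraries, and each library was a pool of RNA from 2 animals that entered no other pool. Values of single libraries are given in the order of replicates 1, 2 and 3. The labels give neither the sex of the animals nor the construction of the Col6a1 allele.

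Cholesterol is built from acetyl-CoA through mevalonate, isoprenoid units and squalene, which is closed into a ring and trimmed to the final sterol. Fatty acids are built from citrate-derived acetyl-CoA by acetyl-CoA carboxylase and fatty acid synthase, and are then lengthened and given double bonds. Both arms are under the SREBP transcription factors, which the escort protein Scap carries from the endoplasmic reticulum when sterol is low and which the Insig proteins hold back when it is high. Srebf2 mainly drives the sterol enzymes and Srebf1 mainly the fatty acid enzymes. In the lung, alveolar type 2 cells make fatty acids for the phospholipids of surfactant, and fat cells make them for storage.

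The start-site windows of 4 members are shown because they hold letters of elements known from the control of this pathway. They belong to Hmgcs1 of the sterol arm, the sterol-arm gene Nsdhl, the SREBP regulator Insig2 and the fatty acid gene Fasn, and the last 3 were among the genes whose libraries did not overlap between genotypes. Each run is the 250 bases before a RefSeq start site on GRCm38.p6, 5′ to 3′ on the gene's strand. Insig2 has 3 start-site windows, and neither of the other 2 holds these letters; the other 3 genes have 1 window each. Capitals mark TCACNCCAC, letters of the sterol regulatory element, or CCAAT, the box of the SREBP partner NF-Y, on either strand (ATTGG is CCAAT on the opposite strand).
Hmgcs1, chr13:119690101-119690350, plus strand: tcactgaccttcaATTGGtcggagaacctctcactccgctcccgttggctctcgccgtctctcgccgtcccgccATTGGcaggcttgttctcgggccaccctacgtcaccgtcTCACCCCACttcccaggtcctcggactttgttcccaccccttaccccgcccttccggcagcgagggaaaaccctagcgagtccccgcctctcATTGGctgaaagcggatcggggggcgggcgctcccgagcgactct
Nsdhl, chrX:72918271-72918520, plus strand: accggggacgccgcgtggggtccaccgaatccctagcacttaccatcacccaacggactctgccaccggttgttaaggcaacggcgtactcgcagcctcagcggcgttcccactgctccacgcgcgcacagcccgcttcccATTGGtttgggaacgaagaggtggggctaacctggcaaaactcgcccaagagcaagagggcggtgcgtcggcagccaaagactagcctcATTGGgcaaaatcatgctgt
Insig2, chr1:121332590-121332839, minus strand: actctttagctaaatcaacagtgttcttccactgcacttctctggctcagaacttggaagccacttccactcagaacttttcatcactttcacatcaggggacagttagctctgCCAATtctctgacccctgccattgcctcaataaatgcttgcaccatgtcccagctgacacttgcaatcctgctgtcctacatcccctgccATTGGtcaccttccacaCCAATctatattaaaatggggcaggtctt
Fasn, chr11:120824548-120824797, minus strand: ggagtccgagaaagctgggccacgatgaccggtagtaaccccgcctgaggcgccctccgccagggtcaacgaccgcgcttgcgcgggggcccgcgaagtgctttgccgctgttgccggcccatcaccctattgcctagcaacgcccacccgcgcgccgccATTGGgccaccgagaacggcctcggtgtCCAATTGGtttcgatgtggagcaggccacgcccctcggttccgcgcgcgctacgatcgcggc

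RefSeq windows, which run from 250 bases before to 50 after a start site, were matched by symbol for 28 of the 35 members, with 37 windows in all. Fdps, Fdft1, Sqle, Stard4, Scd1, Scd2 and Fads1 had none. TCACNCCAC was found in 1 member window, that of Hmgcs1, where it began 137 bases before the start, and in 1.24% of the 32851 windows of all genes. Its shorter core CACNCCAC, which lies inside the longer letters, was found in windows of Acat2, Hmgcs1 and Insig1, 8.11% of member windows against 6.24% of all. CCAAT was in 64.9% of member windows against 37.4% of all. By arm it was in 77.8% of sterol-arm windows, 50% of those of SREBP regulators and 55.6% of those of fatty acid genes. Counted by gene, it was in 14 of the 15 sterol-arm members, 4 of 5 SREBP regulators and 5 of 8 fatty acid genes that had a window. Some genes had more than 1 window, and the share by gene over all genes was not computed. In Fasn the last of the marked runs is CCAAT overlapping its own reverse complement. These matches describe the letters of the windows and say nothing of what was bound in these lungs.

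Between 28055414 and 37904878 reads fell in genes in each library. Col6a1 itself stood at 19907, 18393 and 22330.5 normalized counts (reads divided by the library's size factor) in wildtype against 10034, 10616 and 9344 in mutant lungs. It was 49.5% of wildtype (limma adjusted p 0.00643). All 10 lung markers checked, from Sftpc of alveolar type 2 cells to Cdh5 of endothelium, were present in every library at 2137 normalized counts or more. Xist and 4 Y-linked genes showed that the pools differed in sex. The male share, the Y-linked level relative to mutant replicate 2, was 0.347%, 3.35% and 51.5% in wildtype against 72.5%, 100% and 51.1% in mutant lungs. Xist was at 16212, 16430 and 13592 normalized counts in wildtype against 12025, 28.4 and 10486.5 in mutant lungs. Xist was thus lower in mutant replicate 3 than in replicate 1, although replicate 1 had the larger male share. The share of the mixed pools is therefore approximate. Wildtype replicates 1 and 2 were thus nearly all female, mutant replicate 2 was all male, and the other 3 pools held both sexes. Genotype and sex are thus partly confounded.

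All 35 genes passed the filter of at least 10 normalized counts in at least 3 libraries, with the lowest single value at 152 (Fdps). None passed the limma test, made on log2(normalized count + 1) over all 16879 tested genes, at an adjusted p under 0.05, where 0.0652% of genes (11) did, 0.0474% lower and 0.0178% higher in mutant lungs. Estimates were above 0 for 15 members and below 0 for 20, where 51.7% of all tested genes lay above 0. At an unadjusted p under 0.05 there were 9 members, 7 lower and 2 higher in mutant lungs, where 20.3% of all tested genes (3430) lay under that value, 10.6% lower and 9.72% higher. In the authors' deposited table, 2 of the 35 had an adjusted p under 0.05, Fasn and Fads2, both lower, where 5.05% of genes with an adjusted p did, 3.18% lower and 1.87% higher. With libraries weighted by their quality limma called 10 members, where it called 19.1% of all tested genes. For 11 members, 8 lower and 3 higher, every mutant library lay on the same side of every wildtype library, which is 31.4% of the members against 24.9% of all tested genes (14.2% lower and 10.7% higher).

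**Figure D1:**
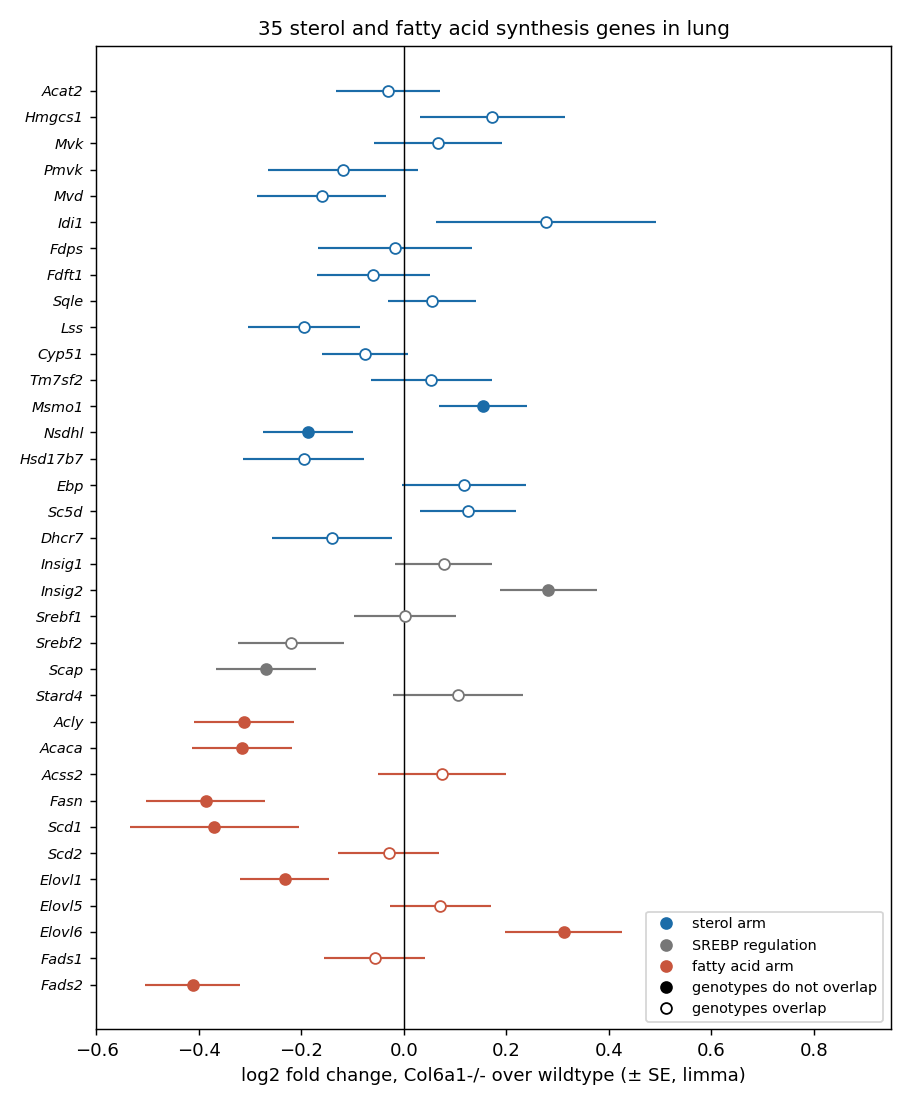
Log2 fold change of each of the 35 genes, Col6a1-/- over wildtype, on log2(normalized count + 1), with bars of 1 SE from limma (3 libraries each). Filled points mark the 11 genes whose libraries do not overlap between genotypes, and 6 of the 8 lower ones belong to the fatty acid arm, drawn at the bottom.

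Most estimates of the fatty acid arm were lower in mutant lungs (8 of 11), while the sterol arm was divided (10 lower, 8 higher). The median log2 fold change was -0.23 over the 11 fatty acid genes, -0.02 over the 18 sterol enzymes and 0.04 over the 6 SREBP regulators, beside 0.01 over all tested genes. Without overlap between genotypes were 7 of 11 fatty acid genes (6 lower, 1 higher), 2 of 18 sterol enzymes (1 lower, 1 higher) and 2 of 6 regulators (1 lower, 1 higher). These medians and counts are descriptions of the chosen genes and carry no test. In bulk lung, fewer cells of a type and less RNA per cell cannot be told apart.

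Acly, ATP-citrate lyase, makes the cytosolic acetyl-CoA from which fatty acids are built. Its normalized counts were 10136, 10042 and 8409 in wildtype against 7937, 7337 and 7690.4 in mutant lungs. The mean was 80.3% of wildtype, 7655 ± 302 against 9529 ± 971 (SD, n = 3 each), and the log2 fold change was -0.31 (SE 0.10, limma adjusted p 0.134). Wildtype replicate 3, a pool of both sexes, lay nearest to the mutant libraries, and this order returned in the next enzymes of the pathway.

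Acaca, acetyl-CoA carboxylase, makes the malonyl-CoA that feeds chain growth. It was at 2457, 2391 and 2032 in wildtype against 1927, 1737 and 1845 in mutant lungs, a mean of 80.1% of wildtype (log2 fold change -0.32, SE 0.10, limma adjusted p 0.132). Fasn, fatty acid synthase, builds palmitate, and its gene (ENSMUSG00000025153.9) spans chromosome 11 from 120805846 to 120824547, minus strand. It stood at 24101, 23033.5 and 18435 in wildtype against 17067, 17291 and 15517 in mutant lungs, with a mean of 76.1% of wildtype (log2 fold change -0.39, SE 0.12, limma adjusted p 0.128). For both genes the lowest wildtype library, replicate 3, was only just above the highest mutant library. Fasn was called in the authors' deposited table, with a log2 fold change of -0.35 and an adjusted p of 0.0288. DESeq2 on reads recovered from the normalized counts gave -0.39 with the same adjusted p, 0.0288. The deposited fold changes are thus on a smaller scale than the others given here. Acss2, which makes acetyl-CoA from acetate, did not share this order. It ranged from 988 to 1295 in wildtype and from 1107 to 1392 in mutant lungs, with its highest value in mutant replicate 2 and an adjusted p of 0.763.

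Among the desaturases, Fads2, the delta-6 desaturase that opens the route to long polyunsaturated fatty acids, had the smallest p of all 35 genes. The gene (ENSMUSG00000024665.8) lies on the minus strand of chromosome 19, from 10062765 to 10101746 on GRCm38. Its normalized counts were 1881, 1748 and 1656 in wildtype against 1392, 1355 and 1225 in mutant lungs. Every mutant library lay clearly below every wildtype library. The mean was 1324 ± 87.7 against 1761 ± 113 (SD, n = 3 each), 75.1% of wildtype, and the log2 fold change was -0.41 (SE 0.09, limma adjusted p 0.0939). In the authors' deposited table it was called, at -0.37 on the smaller scale of that table, with an adjusted p of 0.0134. DESeq2 on recovered reads gave -0.41. Fads1, the delta-5 desaturase, lies 81.1 kb away on chromosome 19 and acts later in the same route. It overlapped between genotypes, at 5145 to 5955 in wildtype and 5027 to 5997 in mutant lungs.

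Scd1 and Scd2, stearoyl-CoA desaturases, put the first double bond into palmitate and stearate, and their genes lie 87.6 kb apart on chromosome 19. Scd1 had the highest level per transcript length of the 35 genes, 14777 normalized counts per kb in wildtype. It was at 66344, 79102 and 68758 normalized counts in wildtype against 64189.8, 42188 and 61763 in mutant lungs. The low value of mutant replicate 2, the male pool, carried much of the difference. Its log2 fold change was -0.37 (SE 0.16, limma adjusted p 0.239), and -0.18 without that library. Scd2 overlapped between genotypes and reached 98.1% of wildtype (adjusted p 0.892).

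The elongases went in both directions. Elovl1, which extends saturated chains to very long ones, was at 13933, 13522 and 12795 in wildtype against 11295, 10982 and 11974 in mutant lungs, 85.1% of wildtype (log2 fold change -0.23, SE 0.09, limma adjusted p 0.177). Elovl6, which lengthens palmitate to stearate (chromosome 3, 129532355 to 129638495, plus strand), was higher in each mutant library, at 401, 349 and 361 against 282, 304 and 307. It stood at 124% of wildtype (log2 fold change 0.31, SE 0.11, limma adjusted p 0.174). Elovl5, an elongase of polyunsaturated chains, overlapped between genotypes at 105% of wildtype. Per kb of its longest transcript Elovl6 was the lowest of the 35 genes in wildtype, and Elovl1 was second to Scd1, at 7408.

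**Figure D2:**
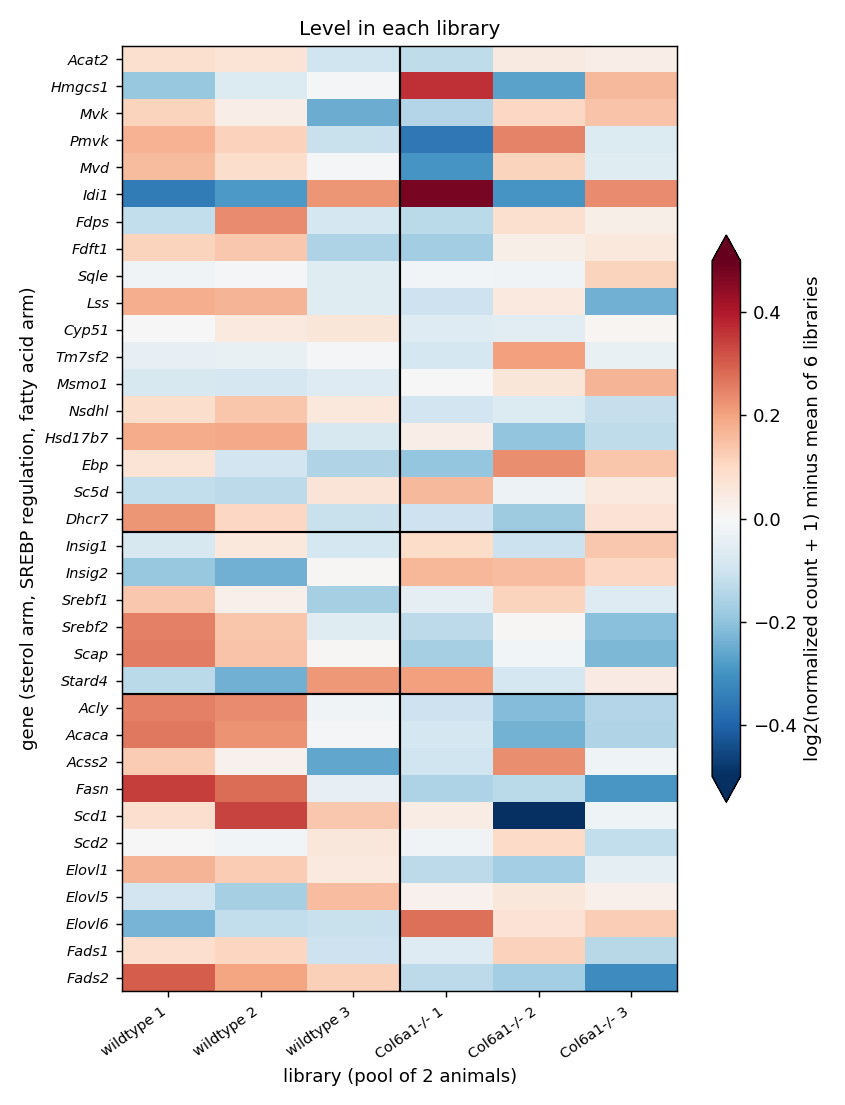
Level of each gene in each library, as log2(normalized count + 1) minus the mean of the 6 libraries, with the colour scale ending at 0.5 in either direction and horizontal lines between the arms. Wildtype replicates 1 and 2 are the red columns for Acly, Acaca and Fasn, and Scd1 in Col6a1-/- replicate 2 lies beyond the end of the scale.

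In the sterol arm no enzyme from acetyl-CoA to squalene separated the genotypes. Hmgcs1, HMG-CoA synthase, was at 2854, 3104 and 3240.4 in wildtype against 4184, 2701 and 3639.8 in mutant lungs. Its mutant libraries were thus both the highest and the lowest of the 6, and the adjusted p was 0.511. Idi1, isopentenyl diphosphate isomerase, had the smallest p of these 8 enzymes and the widest coefficient of variation over the 6 libraries of the 35 genes, 24.8%. It was at 170.3, 178 and 254 in wildtype against 303, 177 and 256 in mutant lungs (log2 fold change 0.28, SE 0.22, limma adjusted p 0.484), and its highest library was 1.78 times its lowest. Both genes were highest in mutant replicate 1. Pmvk, phosphomevalonate kinase, had the highest level per kb of these 8 enzymes in wildtype, 962. It was at 1238, 1191 and 1018 normalized counts in wildtype against 856, 1306 and 1048 in mutant lungs, lowest in mutant replicate 1, where Hmgcs1 and Idi1 were highest. The remaining 5 (Acat2, Mvk, Mvd, Fdps and Fdft1) stood between 89.9% and 105% of wildtype.

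From squalene to cholesterol, 2 of 10 enzymes did not overlap, a share of 20% that is below the 24.9% of all tested genes. Msmo1, the sterol C4-methyl oxidase, was at 1474, 1468 and 1488 in wildtype against 1560.0, 1623 and 1752 in mutant lungs (log2 fold change 0.15, SE 0.09, limma adjusted p 0.331). Nsdhl, which acts after it in removing the same methyl groups (chromosome X, 72918557 to 72958514, plus strand), was at 945, 979 and 923 in wildtype against 832, 847 and 819.7 in mutant lungs. It stood at 87.8% of wildtype (log2 fold change -0.19, SE 0.09, limma adjusted p 0.259). The first was higher and the other lower in mutant lungs, and neither passed the test. Sqle, squalene epoxidase, and Cyp51, lanosterol demethylase, varied least, with a coefficient of variation over the 6 libraries of 4.16% and 3.64%. Ebp, the sterol isomerase with the highest level per kb of these 10 enzymes in wildtype (719), was at 1365, 1219.6 and 1173 normalized counts in wildtype against 1138, 1531 and 1434 in mutant lungs.

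Lss, lanosterol synthase, is the member that shares a chromosome with Col6a1. It lies 152 kb away on chromosome 10 (76531588 to 76557138, plus strand, GRCm38). Its counts were 1255, 1243 and 1059 in wildtype against 1029.6, 1144 and 936 in mutant lungs, so the genotypes overlapped (87.4% of wildtype, limma adjusted p 0.338). The other 6 enzymes of this stretch (Sqle, Cyp51, Tm7sf2, Hsd17b7, Sc5d and Dhcr7) stood between 87.2% and 109% of wildtype.

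Among the regulators, Insig2, which keeps Scap in the endoplasmic reticulum, was higher in mutant lungs and Scap was lower. Insig2 (chromosome 1, 121304353 to 121332589, minus strand) was at 1103, 1066 and 1262 in wildtype against 1411, 1399.5 and 1352 in mutant lungs, 121% of wildtype (log2 fold change 0.28, SE 0.09, limma adjusted p 0.150). Scap (chromosome 9, 110333288 to 110384950, plus strand) was at 3022, 2791 and 2539 in wildtype against 2257, 2506 and 2163 in mutant lungs, 82.9% of wildtype (log2 fold change -0.27, SE 0.10, limma adjusted p 0.171). For Scap the gap between the lowest wildtype and the highest mutant library was small. Insig1, whose gene is itself a target of SREBP, overlapped between genotypes at 106% of wildtype, and so did the sterol carrier gene Stard4 at 107%.

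Srebf2, which had the highest level per kb of the 6 regulators in wildtype (1420.3), was at 7917, 7327 and 6389 normalized counts in wildtype against 6080.5, 6684 and 5764 in mutant lungs. It stood at 85.7% of wildtype with overlap (log2 fold change -0.22, SE 0.10, limma adjusted p 0.258). Srebf1 stood at 99.9% of wildtype, with 3430.2 to 4223 in wildtype and 3683 to 4152 in mutant lungs.

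Ratios of related genes within a library do not depend on how libraries are scaled. Of 5 such pairs, chosen after the values had been seen, 3 did not overlap between genotypes. The Srebf2 to Srebf1 ratio was 1.87, 1.87 and 1.86 in wildtype against 1.63, 1.61 and 1.57 in mutant lungs. This ratio was nearly constant within each genotype, although each gene alone varied more between libraries. The Fads2 to Fads1 ratio was 0.321, 0.293 and 0.322 in wildtype against 0.263, 0.226 and 0.244 in mutant lungs. The Elovl6 to Elovl1 ratio was 0.0203, 0.0225 and 0.0240 in wildtype against 0.0355, 0.0318 and 0.0301 in mutant lungs. Each of the 3 had an exact two-sided permutation p of 0.1, the smallest that 3 against 3 libraries allow, and 0.167 after Benjamini-Hochberg adjustment over the 5 pairs. The Insig2 to Insig1 and Scd1 to Scd2 ratios overlapped (exact permutation p 0.3 each, adjusted 0.3). Because the pairs were picked with their values known, these p-values describe the separation and do not test it. Fads2, Elovl6 and Elovl1 were already among the genes without overlap, and the share of other gene pairs without overlap was not computed.

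**Figure D3:**
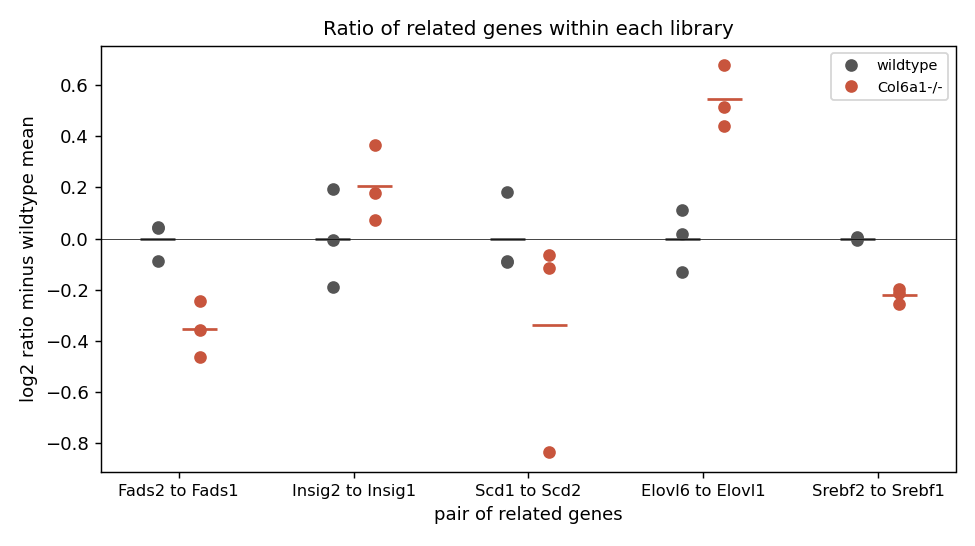
Log2 ratio of 5 pairs of related genes in each library, minus the wildtype mean, with points for libraries (3 per genotype) and short lines for means. The Srebf2 to Srebf1 points lie closest together within genotypes, and the Elovl6 to Elovl1 pair has the widest gap between means, a log2 change of 0.55.

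Averaged over its genes, the fatty acid arm was at 0.12, 0.11 and -0.0032 in wildtype against -0.04, -0.08 and -0.10 in mutant lungs, in log2 units relative to the mean of the 6 libraries. The genotypes did not overlap, but wildtype replicate 3 lay closer to mutant replicate 1 than to the other wildtype pools. With a trend on transcript length and GC content removed from each library, the fatty acid arm was at 0.08, 0.07 and -0.03 in wildtype against -0.05, -0.05 and -0.02 in mutant lungs, and the genotypes overlapped. The sterol arm was at 0.03, 0.03 and -0.05 in wildtype against -0.05, 0.0034 and 0.03 in mutant lungs, with the genotypes mixed. The sterol arm minus the fatty acid arm was -0.09, -0.08 and -0.04 in wildtype against -0.0061, 0.09 and 0.13 in mutant lungs, higher in each mutant pool. With the same trend removed it was -0.03, -0.02 and -0.02 in wildtype against -0.03, 0.06 and 0.04 in mutant lungs, and mutant replicate 1 lay within the wildtype range. Mutant replicate 1 was the lowest library for 8 of the 18 sterol enzymes, and mutant replicates 2 and 3 were the lowest for 4 fatty acid genes each.

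Markers of cell types that handle lipid differed between the pools as well. The summed adipocyte markers were 11822, 8935 and 6391 normalized counts in wildtype against 12290.2, 17225 and 13145 in mutant lungs. Of 13 tested adipocyte markers, 12 had higher estimates, none past the limma threshold, and the 14th, Ucp1, was at 4.39 or less in every library. The defining markers Adipoq, Plin1 and Cidec were present in every library, at 85.2 or more. Every mutant pool had a larger sum than every wildtype pool, whereas the fatty acid arm, as deposited, was lower in every mutant pool. Among the wildtype pools, both the sum and the fatty acid arm were lowest in replicate 3. Alveolar type 2 markers summed to 1235805, 1224517 and 1165105 normalized counts in wildtype against 1050650.5, 1224153 and 1204790.2 in mutant lungs, so that the genotypes overlapped. Their mean log2 level, in which each gene counts alike, did not overlap and was 0.08, 0.07 and 0.06 relative to the 6 libraries in wildtype against -0.09, -0.08 and -0.03 in mutant lungs, and 10 of 12 had lower estimates. Sftpc overlapped between genotypes, while Abca3, the lipid transporter of lamellar bodies, was at 27032, 26329 and 22937 in wildtype against 20879, 17810 and 19401 in mutant lungs (limma adjusted p 0.111). Alveolar macrophage markers summed to 27153 to 29605 in wildtype and 22885 to 25956 in mutant lungs, with 11 of 12 lower estimates and Marco, Chil3 and Siglecf present in every library. No marker of these cells passed the limma threshold, and the part of any of these cells in the lower fatty acid genes was not tested.

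**Figure D4:**
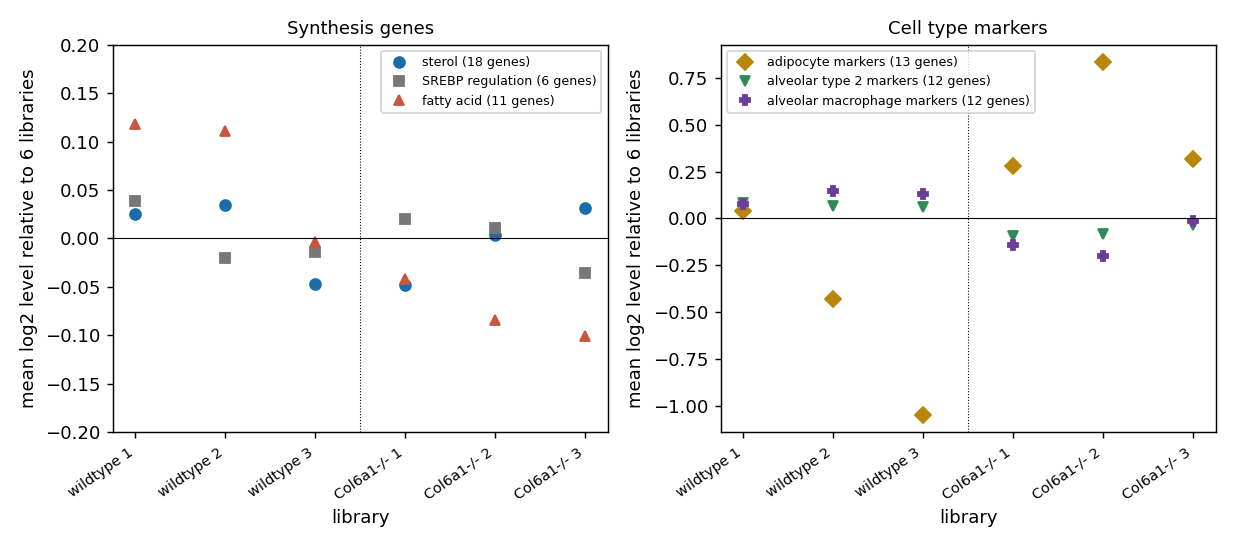
Mean log2 level of each gene group in each library, relative to the mean of the 6 libraries, for the synthesis genes (left, axis from -0.2 to 0.2) and for cell type markers (right, wider axis). The fatty acid arm is highest in wildtype replicates 1 and 2 and the adipocyte markers are lowest in wildtype replicate 3, at -1.04.

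With the male share of the pools entered as a covariate, 10 of the 11 genes without overlap had a smaller log2 fold change than without it. Those of Acly, Acaca and Fasn were -0.10, -0.10 and -0.23, and those of Scd1, Elovl1 and Insig2 were -0.05, -0.11 and 0.12. Fads2 and Elovl6 kept most of their size, at -0.39 and 0.30, and so did Scap (-0.24) and Nsdhl (-0.17). Msmo1 was larger, at 0.19 with the covariate against 0.15 without it. Among the 3 pools that held both sexes, the wildtype side is replicate 3 alone, the wildtype pool that lay nearest to the mutant pools for Acly, Acaca and Fasn. Against it the log2 fold changes of these 3 genes were -0.11, -0.11 and -0.18. Those of Fads2, Elovl6, Scap, Nsdhl and Msmo1 were -0.34, 0.31, -0.20, -0.16 and 0.15. These values have no replicate on the wildtype side. No member passed a limma adjusted p of 0.05 with the covariate. The 11 genes were chosen for separating these same libraries, and the male share goes partly with genotype. Smaller values with the covariate were thus likely for them in advance, and the share over all genes without overlap was not computed.

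Transcript length and GC content differ among the members, and Fasn (10050 bases, 57.9% GC) and Acaca (9513 bases) have the longest transcripts of the 35. With a smooth trend on both removed from each library, Fasn was at -0.14, Acaca at -0.11, Acly at -0.18 and Scap at -0.16, while Fads2 (-0.35), Elovl1 (-0.26), Scd1 (-0.31) and Elovl6 (0.33) moved less and Nsdhl was at -0.31. Msmo1 was at 0.06. Without overlap were then 11 members, 7 of them among the 11 named above, where 24.3% of all genes with a length did not overlap. Fasn, Acaca, Scd1 and Msmo1 overlapped between genotypes once the trend was removed, and Acly, Fads2, Elovl1, Elovl6, Nsdhl, Insig2 and Scap did not. Of the fatty acid genes 4 of 11 were then without overlap, in place of 7. The members that overlapped as deposited and did not with the trend removed were Mvd, Sqle, Sc5d and Srebf1. The adjusted p of Fads2 was then 0.0647 and that of Elovl1 0.079, the smallest of the members.

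**Figure D5:**
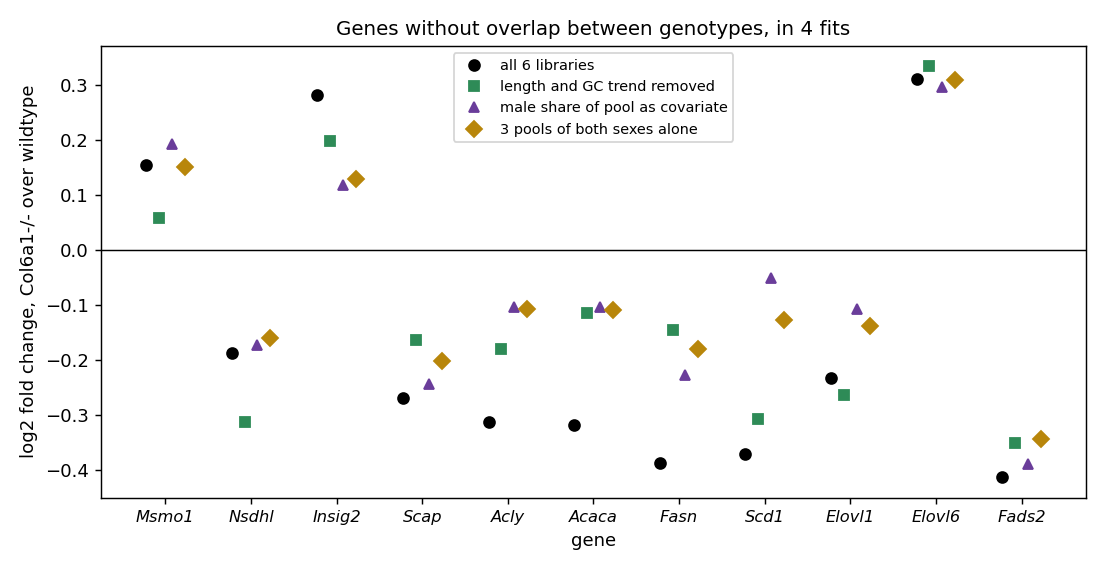
Log2 fold change, Col6a1-/- over wildtype, of the 11 genes without overlap between genotypes in 4 limma fits on log2(normalized count + 1). All 11 keep their sign in the 4 fits, which their lack of overlap already fixes for all libraries and for the pools of both sexes. Acly, Acaca and Fasn come nearer to 0 in each of the other 3 fits, and Fads2 and Elovl6 change least among the fatty acid genes.

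Calls over all genes depended on wildtype replicate 3. Without that pool, 5 members were called by limma, where 8.26% of tested genes were: Fasn (log2 fold change -0.50, adjusted p 0.0191), Fads2 (-0.46, 0.0241), Acly (-0.40, 0.0264), Acaca (-0.40, 0.0272) and Insig2 (0.36, 0.0398). The remaining wildtype pools were then nearly all female and every mutant pool held males, so genotype and sex cannot be told apart in that fit.

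Other genes of these pathways, from lists of related functions, did not pass the test either. Of 20 genes beside the members in sterol metabolism 19 were found and tested, of which 10 had higher and 9 lower estimates (median log2 fold change 0.0042), none called. Rnf139, a ubiquitin ligase of sterol sensing, was at 945, 771 and 1424 in wildtype against 1508, 1339 and 1513 in mutant lungs (adjusted p 0.167). Scarb1, the receptor for high-density lipoprotein, was lower in each mutant library, at 3859 to 4498 against 4728 to 5032 (adjusted p 0.171). Of 26 further genes of fatty acid metabolism, 21 were tested, 17 with higher and 4 with lower estimates (median 0.14), none called. Acsl3, an acyl-CoA synthetase, was at 638, 598 and 639 in wildtype against 758, 843 and 725 in mutant lungs (adjusted p 0.142). Hacd3, a dehydratase of the elongation cycle, was at 3875.7, 3775 and 4288 in wildtype against 4586, 4391 and 4590.4 in mutant lungs (adjusted p 0.248). These further fatty acid genes thus leaned higher, whereas the members of the arm leaned lower.

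Some levels are uncertain because exons are shared with other annotated genes. Fdps shares 26.7% of its exon bases with Gm43738 and Tm7sf2 12.1% with Vps51, both on the same strand. On the opposite strand, Fdft1 shares 18.3% with Ctsb, Scap 13.2% with 5830462I19Rik and Hmgcs1 12.1% with Gm48342. Other members share 9.22% or less with any single gene. The sources used here do not give the strand setting of the counting. Acat2 has a close paralog, Acat3, and the Scd genes resemble each other, so reads could have been split between them.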

How the data were processed

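RNA of 6 lung pools, 3 per genotype, was sequenced. Per the submitters' processing notes the tools were DESeq2 1.16.1, R 3.4.1, featureCounts, Subread 1.5.0p3, STAR 2.5.2b and Trimmomatic 0.36, and the build was GRCm38.p5; roles and order are not stated. The deposited signal is a normalized count per gene and library, made by the authors. Whole reads were recovered by dividing out 1 step per library (100% of values within a relative 1e-06 of a whole multiple). This held also for Col6a1-/- replicate 3, whose size factor was 1.0003. The header of wildtype replicate 2 carries an added "New", whose meaning is not given. The authors' deposited table holds a mean and a statistic (each a score), a log2 fold change, and both raw and adjusted p-value.

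Genes with at least 10 normalized counts in at least 3 libraries (16879) entered a limma-trend model of log2(normalized count + 1). The tests were two-sided, and p-values were adjusted (Benjamini-Hochberg) across all of these genes, in limma 3.58.1 under R 4.3.3. The fit was also run on simulated counts, whose seeded changes were larger than those of the members. The simulation held neither a sex difference nor a length and GC trend, so it does not test the fit for data like these. The p-values measure the spread between pools. Alternatives were other pseudocounts, filters and scalings, edgeR 4.0.16 and DESeq2 1.42.0 on recovered reads, library weights, a replicate block, each library left out, the male share, the mixed-sex pools and a length and GC trend (natural splines, 5 degrees of freedom). Lengths and coordinates are of GENCODE M21 on GRCm38, and length is that of the longest transcript. Values in every library were given for called members, members without overlap, and the member with the smallest p and the one with the highest level per kb in each of 5 role groups. Hmgcs1, Lss and the gene pairs were added after their values were seen. In other pathway lists the 2 smallest p were named. Members and lists were chosen with earlier results of these data known. Sums and levels of the adipocyte, alveolar and lung marker lists carry no test. Figures were drawn with matplotlib 3.10.9 in Python 3.11.15.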

Additional observations from a re-analysis of the deposited data

How the results depend on the processing

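The 11 members without overlap kept the sign of their fold change in the 19 alternatives run, and 21 of the 35 members did so. For the 11, lack of overlap fixes the sign in advance when a library is left out or only the pools of both sexes are used. Their kept sign is therefore no support for a difference. With the length and GC trend removed 4 of the 11 (Fasn, Acaca, Scd1 and Msmo1) overlapped between genotypes. Without any 1 library Fasn ranged from -0.50 to -0.31 and Scd1 from -0.48 to -0.18 (log2 fold change). Depth of 28055414 reads or more left no member under 152 normalized counts, and 3 pools per genotype limit the precision. Causes of the differences between alternatives were not tested.

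Calls over all genes (11) were 93 with no filter, 7 with a filter at 50, 26 with median centring, 742 with DESeq2, 3225 with quality weights, 0 with the male share (1306 at an unadjusted p under 0.05), 325 in the pools of both sexes (1 wildtype library, assumed to vary like the 2 mutant ones), 81 with the length and GC trend removed, and 0 to 1383 without any 1 library. Members called (0, with 9 at an unadjusted p under 0.05; edgeR 0) were 2 with DESeq2 (Fasn and Fads2), 10 with quality weights and 0 to 5 without any 1 library. Replicate numbers did not pair the samples (correlations of deviations of -0.14, 0.11 and -0.0059), and a replicate block gave 7 calls over all genes and 0 among the members.

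The fatty acid median (-0.23) was -0.16 with quantile normalization, -0.10 with the male share, -0.13 in the pools of both sexes, -0.11 with the trend removed and -0.27 to -0.18 without any 1 library. The sterol median (-0.02) was -0.063 with median centring, -0.062 with quantile normalization, -0.067 with quality weights, 0.055 with the male share, 0.047 in the pools of both sexes, 0.021 with the trend removed and -0.064 to 0.032 without any 1 library. The regulators' median (0.04) was 0.0018 with median centring, 0.081 with quantile normalization, 0.0043 with quality weights, -0.0027 with the male share, 0.0085 in the pools of both sexes and -0.013 to 0.060 without any 1 library. The difference of the sterol and fatty acid medians (0.21) was 0.10 with quantile normalization, 0.14 with the trend removed and 0.12 to 0.26 without any 1 library.

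Signs turned as follows. Srebf1 was at -0.036 with median centring, -0.0063 with edgeR, -0.00083 with DESeq2 and -0.071 with quality weights, where Acss2 was at -0.029. With quantile normalization Tm7sf2 was at -0.012 and Scd2 at 0.027. With the male share Acat2 was at 0.068, Fdps 0.033, Fdft1 0.12, Tm7sf2 -0.091, Hsd17b7 0.022, Dhcr7 0.16, Stard4 -0.086, Elovl5 -0.13, the Insig2 to Insig1 ratio -0.12 and the Scd1 to Scd2 ratio 0.13. In the pools of both sexes Acat2 was at 0.052, Fdps 0.033, Fdft1 0.097, Tm7sf2 -0.057, Hsd17b7 0.034, Dhcr7 0.096, Stard4 -0.095, Elovl5 -0.13, Fads1 0.0028, the Insig2 to Insig1 ratio -0.070 and the Scd1 to Scd2 ratio 0.0014. With the trend removed Fdps was at 0.011, Fdft1 0.031, Scd2 0.11, Elovl5 -0.036 and Fads1 0.022. Without any 1 library the ranges were -0.084 to 0.097 for Fdps, -0.039 to 0.16 for Mvk, -0.080 to 0.070 for Srebf1, -0.037 to 0.16 for Acss2, -0.089 to 0.023 for Acat2, -0.27 to 0.031 for Pmvk, -0.15 to 0.011 for Fdft1, -0.036 to 0.11 for Tm7sf2 and -0.086 to 0.025 for Scd2.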

Other observations

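Genes of triglyceride and phospholipid synthesis and of cholesterol export were not part of the 35. Of 12 genes of triglyceride and phospholipid synthesis, 6 had higher and 6 lower estimates (median log2 fold change -0.05), none called by limma. Thrsp, a lipogenic gene of fat cells and liver, was at 279, 198 and 137 normalized counts in wildtype against 325, 466 and 386 in mutant (Col6a1-/-) lungs, replicates 1, 2 and 3 in order (adjusted p 0.095). Dgat2, which completes triglycerides, was at 438, 413 and 352 in wildtype against 498, 1412 and 539 in mutant lungs (adjusted p 0.177). Its high value came from mutant replicate 2, the male pool in which the adipocyte markers were highest. Of 13 LXR targets and genes of cholesterol export, 5 had higher and 8 lower estimates (median -0.01), none called. Abcg1, a sterol exporter of macrophages and alveolar type 2 cells, was lower in each mutant library, at 2212, 2059 and 2243 against 2731, 2613 and 2631 (adjusted p 0.115). Abcg2, a transporter in the same family, was at 863, 897 and 1047 in wildtype against 1002, 1256 and 1037 in mutant lungs (adjusted p 0.294).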
